A study of Mus musculus with 8 samples.

Results

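The Hox cluster genes were examined by RNA-seq in cultures of mouse small cell lung cancer (SCLC), a neuroendocrine lung tumor. Members were the protein-coding entries of the count table whose symbol is Hox followed by a cluster letter (a, b, c or d) and a number, which gave 18 of the 22691 genes in the table. The series held 4 libraries from cells overexpressing mouse Nfib, which encodes a nuclear factor I transcription factor, and 4 libraries from the same cultures carrying an empty vector. The cells of both arms were labelled primary mouse SCLC from lung, with the genotype invCAG-Mycl-Luc, Rb1-/- (a Mycl transgene and loss of Rb1) on the background strain FVB/n; 129/Ola. Pair 1 was made in a culture called Lmyc1 old, pair 2 in Lmyc3 old, pair 3 in Lmyc3 new and pair 4 in Lmyc5 new. No source used here gives what old and new stand for, how the vectors were delivered, whether a culture is 1 clone, or the age of the mice. Each culture was sequenced once per arm, so the p-values reflect the spread among these libraries, which may be technical.

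Hox genes encode homeodomain transcription factors that give cells their position along the head-to-tail axis of the embryo. They lie in 4 clusters, HoxA to HoxD, and the order of genes along a cluster follows the order in which they are used: genes at the 3′ end act early and toward the head, genes at the 5′ end act later and toward the tail. Cells of adult organs often keep the Hox pattern of their place of origin, and in the developing lung HoxA and HoxB genes of the middle of the clusters are known mainly from the mesenchyme. Hox proteins bind DNA with partner homeodomain proteins of the Pbx, Meis and Pknox families. Trithorax proteins such as Kmt2a maintain an active cluster and Polycomb proteins such as Ezh2 maintain a repressed one.

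Total counts per library ranged from 21815264 to 29934021. Nfib itself had 1282, 4682, 2933 and 3590 CPM (counts-per-million on TMM-scaled library sizes) in the Nfib libraries of pairs 1 to 4, against 72.0, 400.2, 163 and 487 CPM in the empty vector libraries, so the arms matched their labels. All 11 neuroendocrine and lung tumor markers examined (Insm1, Chga, Syp and others) reached 1 CPM, with a summed level of 2205 to 4806 CPM in Nfib libraries and 3217 to 5158 CPM in empty vector libraries. One of the 11 fell in the paired test described below (Nkx2-1, log2 difference -0.39, DESeq2 adjusted p = 0.0122). Pairs 2 and 3 were both labelled Lmyc3, and 59.9% of all tested genes differed between them in the edgeR test given below. Xist, looked at after these values were seen, was at 1.77 and 0.874 CPM in the Nfib libraries and 1.08 and 0.993 CPM in the empty vector libraries of Lmyc3 new and Lmyc3 old. It was at 1387 and 3846 CPM in the Nfib libraries and 2546 and 3916 CPM in the empty vector libraries of Lmyc1 and Lmyc5. Because HoxB counts were lowest in pair 2, results that rest on it are given with and without it where the comparison allows.

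Pooled over the 8 libraries, Hox counts came almost entirely from 1 cluster. HoxB genes held 130219 of the 130388 Hox counts, or 99.9%. This share rests on the 3 cultures with high HoxB. In Lmyc3 old HoxB had 144 and HoxD 30 counts with Nfib, against 121 and 57 with empty vector. The GRCm38 annotation used here (GENCODE vM21) lists 39 protein-coding Hox genes, 11 in HoxA, 10 in HoxB, 9 in HoxC and 9 in HoxD. The table held all 10 HoxB genes, 2 HoxA genes, 6 HoxD genes and no HoxC gene under these symbols, and the table lists no gene without a count. The other 21 genes were not analysed here. An entry spelled HOXD3, in capitals, was outside the rule and had 3 counts, all in the Nfib library of Lmyc5 new.

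A total of 9 members reached 1 CPM in at least 1 library: Hoxb2, Hoxb3, Hoxb4, Hoxb5, Hoxb6, Hoxb7, Hoxb8, Hoxb9 and Hoxd8. The other 9 stayed under that level in all 8 libraries, with 1 to 21 counts each over all libraries together: Hoxa5, Hoxa13, Hoxb1, Hoxb13, Hoxd1, Hoxd4, Hoxd10, Hoxd11 and Hoxd13. A count of 0 allows up to 3 counts, or 0.102 to 0.142 CPM depending on the library, by counting error alone. Hoxd13, a gene of limb and genital development, was the highest of the 9, at 0.230 CPM in the Nfib library and 0.757 CPM in the empty vector library of Lmyc3 old and at 0 in the other 6 libraries. Hoxa5, which is needed for the development of the airways in mice, was among those at or near 0. The low-count filter kept the 9 members that reached 1 CPM and left the other 9 untested.

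The 8 transcribed HoxB genes form an unbroken block. From Hoxb9 to Hoxb2 they occupy chromosome 11, 96271457 to 96354012 (GRCm38, plus strand), a stretch of 82.6 kb. The genes at both ends of the cluster were not part of it: Hoxb13, the most 5′ gene, is 74.0 kb away from Hoxb9 and had 2 counts over the 8 libraries, and Hoxb1, the most 3′ gene, is 11.7 kb away from Hoxb2 and had 1 count. In the 3 cultures other than Lmyc3 old, every one of the 8 genes was at or above 24.4 CPM in both arms.

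Promoters were available from RefSeq (GRCm38.p6, 250 bases before to 50 after the start) for 11 of the 18 members, among them 3 HoxB genes. They are shown because they set 2 transcribed genes of the block, Hoxb8 and Hoxb4, beside Hoxb1 at its 3′ border. Capitals mark the core of the nuclear factor I motif, TTGGC, or its reverse complement GCCAA, searched on both strands. The windows are chr11:96281655-96281954 for Hoxb8, chr11:96318017-96318316 for Hoxb4 and chr11:96365508-96365807 for Hoxb1, all on the plus strand.
Hoxb8: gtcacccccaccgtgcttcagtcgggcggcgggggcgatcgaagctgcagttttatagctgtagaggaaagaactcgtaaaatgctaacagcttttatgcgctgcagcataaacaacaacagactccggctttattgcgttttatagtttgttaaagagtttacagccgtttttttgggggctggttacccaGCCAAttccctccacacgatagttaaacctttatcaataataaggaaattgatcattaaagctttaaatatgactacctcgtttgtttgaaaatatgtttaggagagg
Hoxb4: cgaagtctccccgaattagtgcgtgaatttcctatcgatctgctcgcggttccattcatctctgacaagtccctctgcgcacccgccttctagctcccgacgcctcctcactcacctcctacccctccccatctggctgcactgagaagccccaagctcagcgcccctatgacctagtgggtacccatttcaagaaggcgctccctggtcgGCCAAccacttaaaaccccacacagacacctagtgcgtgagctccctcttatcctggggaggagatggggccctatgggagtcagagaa
Hoxb1: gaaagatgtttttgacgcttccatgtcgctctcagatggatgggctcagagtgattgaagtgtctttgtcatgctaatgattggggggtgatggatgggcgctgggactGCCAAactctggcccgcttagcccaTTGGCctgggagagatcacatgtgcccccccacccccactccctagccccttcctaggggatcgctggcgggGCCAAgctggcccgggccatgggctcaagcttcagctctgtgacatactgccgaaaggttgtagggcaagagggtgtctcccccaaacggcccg
The core was found once in the Hoxb8 window, once in the Hoxb4 window and 3 times in the Hoxb1 window. It occurs in 46.7% of all 32851 promoters of that length. The palindromic motif of that factor family, TTGGC and GCCAA with 5 bases between them, was in none of the 3 windows and is in 0.0365% of all promoters. The Pbx and Hox motif TGATTNAT was also in none of them (3.22% of all promoters). The TATA box string TATAAA, searched on both strands and apart from the other matches, was found 2 times in the Hoxb8 window and is in 13.6% of all promoters. Both matches are its reverse complement TTTATA, so they are matches of the string and not a TATA box on the strand of the gene. The windows held 13, 14 and 10 CpG dinucleotides for Hoxb8, Hoxb4 and Hoxb1, against a median of 7 over all promoters. No window was in the table for Hoxb9.

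**Figure D1:**
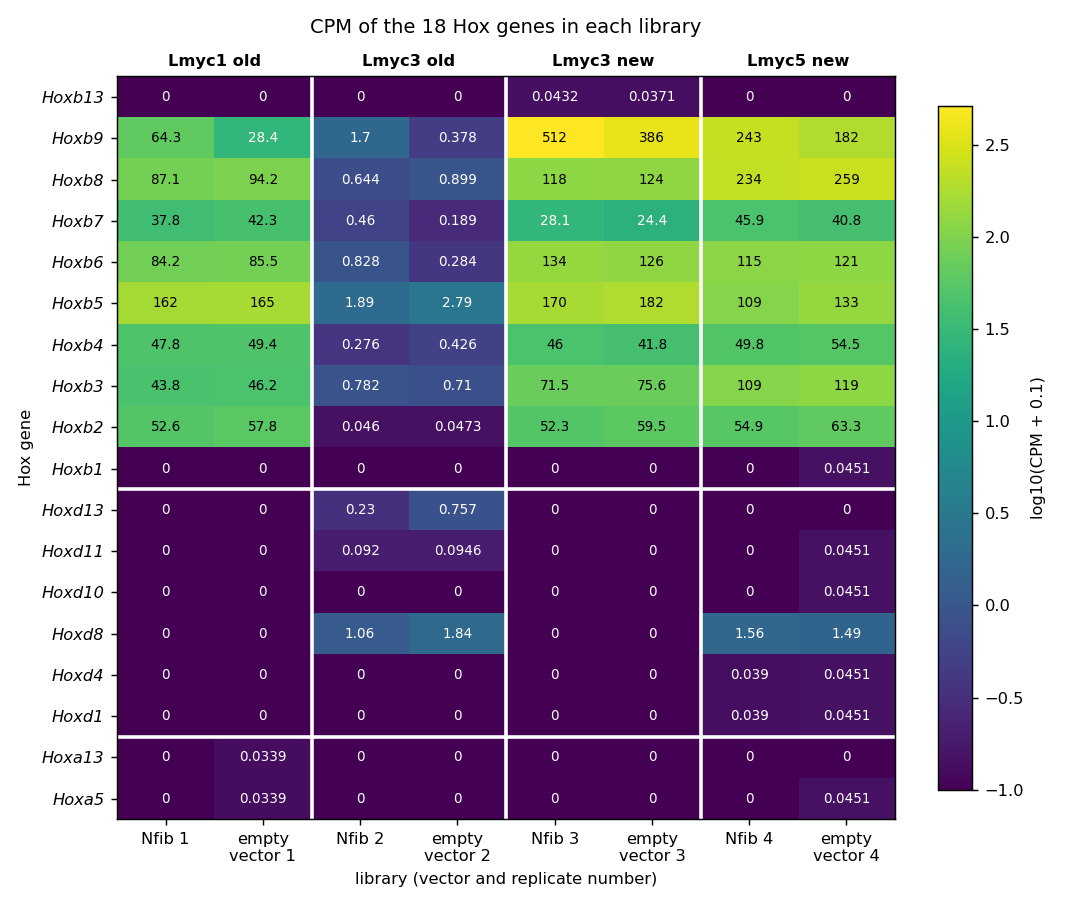
Level of each of the 18 Hox genes (rows, in cluster order) in each of the 8 libraries (columns), with CPM printed in each cell and color on the scale of log10(CPM + 0.1), Nfib left of empty vector within each pair. Signal is seen at Hoxb2 to Hoxb9 in 3 of the 4 cultures, at 569 to 1132 CPM summed, and is near 0 in Lmyc3 old.

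The Hox pattern differed between cultures far more than between arms. Summed over the cluster, HoxB reached 579.8, 1132 and 961 CPM in the Nfib libraries of Lmyc1 old, Lmyc3 new and Lmyc5 new, against 569, 1019 and 973 CPM in their empty vector libraries. In Lmyc3 old the sum was 6.62 CPM (144 counts) with Nfib and 5.72 CPM (121 counts) with empty vector. Lmyc1 old had 8 Hox genes at or above 1 CPM in both arms, as did Lmyc3 new, and Lmyc5 new had 9 in both arms. Lmyc3 old had 3 with Nfib and 2 with empty vector. Over the 4 cultures the edgeR quasi-likelihood test with the arm as covariate called each of the 8 block genes, where it called 76.7% of all tested genes. Their edgeR adjusted p-values ranged between 2.07e-05 for Hoxb2, Hoxb3 and Hoxb8 and 0.000151 for Hoxb9. The block genes passed the low-count filter through the cultures in which they were high, so these values are a description. Without pair 2 the same edgeR test over 3 cultures called 6 of 8 tested members, where it called 66% of all tested genes. Hoxb2 (adjusted p = 0.369) and Hoxb4 (adjusted p = 0.126) were the members that no longer passed this edgeR test.

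Among the 3 cultures that transcribed the block, the anterior genes Hoxb2 and Hoxb4 were the most even. Hoxb2 (ENSMUSG00000075588, 96350525 to 96354012), which patterns the hindbrain, had 52.6, 52.3 and 54.9 CPM in the Nfib libraries of Lmyc1 old, Lmyc3 new and Lmyc5 new, against 57.8, 59.5 and 63.3 CPM in their empty vector libraries. Its level in Lmyc3 old was 1 count in each arm, 0.0460 CPM with Nfib and 0.0473 CPM with empty vector. Hoxb2 thus lay lower in the Nfib library of the other 3 pairs, by a log2 ratio of -0.20 to -0.14, while pair 2 gives no information, and did not pass any test of Nfib (DESeq2 with the replicate block -0.18 ± 0.11, adjusted p = 0.479).

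Hoxb4 (ENSMUSG00000038692, 96318267 to 96321638), known for expanding blood stem cells when forced, had 47.8, 46.0 and 49.8 CPM in the Nfib libraries of the same 3 cultures, against 49.4, 41.8 and 54.5 CPM in their empty vector libraries. In Lmyc3 old it had 0.276 CPM with Nfib and 0.426 CPM with empty vector. The arms overlapped and the 3 transcribing cultures lay within a narrow band. Hoxb3 (ENSMUSG00000048763, 96323326 to 96347930), which acts with Hoxb2 and Hoxb4 in the hindbrain and neck, had 43.8, 71.5 and 109 CPM with Nfib in those 3 cultures, against 46.2, 75.6 and 119 CPM with empty vector. Its levels in Lmyc3 old were 0.782 CPM with Nfib and 0.710 CPM with empty vector. Hoxb3 differed among the 3 cultures without pair 2 (edgeR adjusted p = 0.00055), with Lmyc5 new the highest in both arms.

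Hoxb5 (ENSMUSG00000038700, 96303336 to 96306121), a gene of the lung mesenchyme and of airway branching in mice, had 162, 169.8 and 109 CPM in the Nfib libraries of Lmyc1 old, Lmyc3 new and Lmyc5 new, against 165, 182 and 133 CPM in their empty vector libraries. It was also the highest Hox gene of Lmyc3 old, at 1.89 CPM with Nfib and 2.79 CPM with empty vector. Lmyc5 new was the lowest of the 3 transcribing cultures here, the reverse of Hoxb3. Hoxb6 (ENSMUSG00000000690, 96292476 to 96301569), a neighbour known from limb and blood development, had 84.2, 134 and 115 CPM with Nfib in those cultures, against 85.5, 126 and 121 CPM with empty vector, and 0.828 CPM with Nfib and 0.284 CPM with empty vector in Lmyc3 old. Hoxb7 (ENSMUSG00000038721, 96286623 to 96290162), active in the ureteric bud of the kidney, had 37.8, 28.1 and 45.9 CPM with Nfib, against 42.3, 24.4 and 40.8 CPM with empty vector. Hoxb7 was the lowest of the block in Lmyc3 new in both arms on the CPM scale, and in Lmyc3 old it had 0.460 CPM with Nfib and 0.189 CPM with empty vector.

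Hoxb8 and Hoxb9, at the 5′ end of the block, differed most in level among the 3 transcribing cultures. Hoxb8 (ENSMUSG00000056648, 96281905 to 96285315), a gene of the trunk spinal cord that also blocks myeloid differentiation when forced, had 87.1, 118 and 234 CPM with Nfib in Lmyc1 old, Lmyc3 new and Lmyc5 new, against 94.2, 124 and 259 CPM with empty vector. In Lmyc3 old it had 0.644 CPM with Nfib and 0.899 CPM with empty vector. Hoxb9, which patterns the thoracic skeleton, had 64.3, 512 and 243 CPM with Nfib in those 3 cultures, against 28.4, 386 and 182 CPM with empty vector. The culture highest in Hoxb8 was Lmyc5 new and the culture highest in Hoxb9 was Lmyc3 new, in both arms. Both genes differed among these 3 cultures in the edgeR test without pair 2 (adjusted p = 0.000375 for Hoxb8 and 0.00111 for Hoxb9).

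Because longer transcripts collect more reads, levels were compared between genes per kilobase of annotated exon. On that scale Hoxb5 led the block in Lmyc1 old, at 58.2 CPM per kb with Nfib and 59.3 CPM per kb with empty vector. Hoxb9 led it in Lmyc3 new, at 199 CPM per kb with Nfib and 149.9 CPM per kb with empty vector. In Lmyc5 new Hoxb9 led with Nfib (94.4 CPM per kb, Hoxb8 88.9) and Hoxb8 led with empty vector (98.2 CPM per kb, Hoxb9 70.7). The lowest of the block per kb was Hoxb3 in Lmyc1 old (10.3 with Nfib, 10.9 with empty vector). In Lmyc5 new it was Hoxb2 (15.8 with Nfib, 18.1 with empty vector), and in Lmyc3 new it was Hoxb2 with Nfib and Hoxb7 with empty vector. Each of these neighbouring orders is a single library per arm, and no test of the difference between genes was made.

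**Figure D2:**
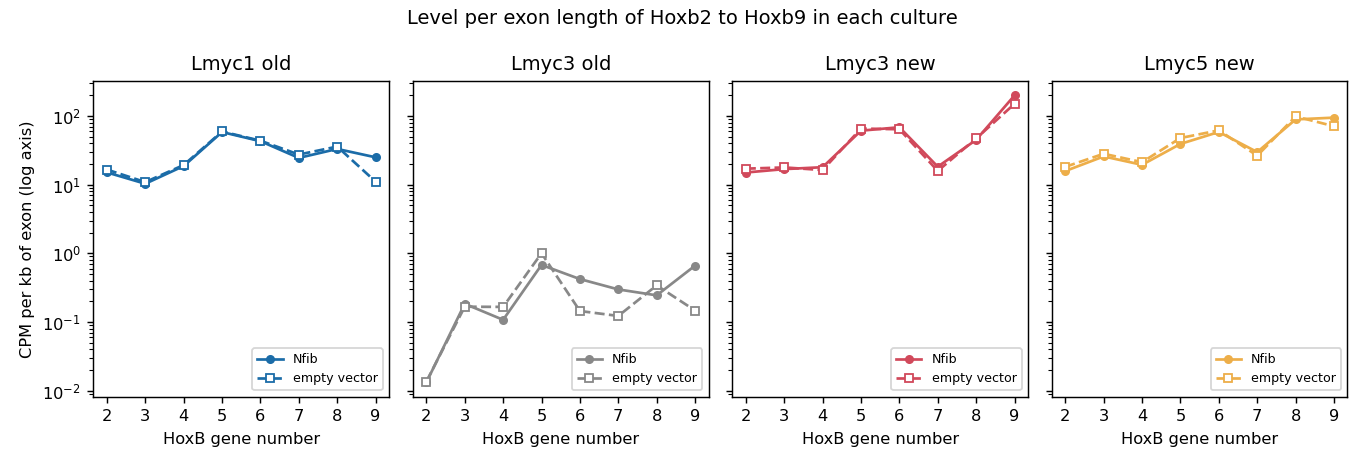
CPM per kb of exon (log axis) for Hoxb2 to Hoxb9, by gene number, 1 panel per culture, with filled circles for the Nfib library and open squares for the empty vector library. The profile peaks at Hoxb5 in Lmyc1 old and at Hoxb9 in Lmyc3 new, and lies lower throughout in Lmyc3 old.

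Hoxd8 was the 1 HoxD gene to reach 1 CPM. It had 1.06 and 1.56 CPM in the Nfib libraries of Lmyc3 old and Lmyc5 new (23 and 40 counts), against 1.84 and 1.49 CPM in their empty vector libraries (39 and 33 counts). It had no count in either arm of Lmyc1 old or Lmyc3 new. Hoxd8 passed the filter only through the libraries in which it had counts, so its differences between cultures are given as a description. Hoxd11 had at most 2 counts in a library, at 0.0920 CPM with Nfib and 0.0946 CPM with empty vector in Lmyc3 old and 0.0451 CPM with empty vector in Lmyc5 new. Hoxd8 lies on chromosome 2, 74704615 to 74707933, and HoxD transcription thus occurred in Lmyc3 old, which lacked most of HoxB, and in Lmyc5 new, which had it.

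Lmyc3 new and Lmyc3 old, which share a line name, gave the widest contrast. Hoxb2 had 52.3 CPM with Nfib and 59.5 CPM with empty vector in Lmyc3 new, against 0.0460 and 0.0473 CPM in Lmyc3 old. Pooled over arms that is 2816 counts against 2, a ratio of 1205 (exact 95% interval 333 to 9952, counting error only). Hoxb9 had 22266 counts in Lmyc3 new against 45 in Lmyc3 old, a ratio of 423 (316 to 581). The smallest ratio of the block was that of Hoxb5, 75.7 (62.1 to 93.1).

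All 8 block genes were higher in Lmyc3 new than in Lmyc3 old in the edgeR test, which called 30.4% of all tested genes higher and 29.5% lower (59.9% in all). The block genes passed the low-count filter through the cultures in which they were high. In Lmyc3 old they had 2 (Hoxb2) to 100 (Hoxb5) counts pooled over arms, so these calls are a description. The log2 differences of the 8 genes ran between 6.24 ± 0.15 (Hoxb5, edgeR adjusted p = 3.82e-05) and 10.07 ± 0.17 (Hoxb2, edgeR adjusted p = 1.95e-05). Their median was 7.12, against -0.01 over all tested genes. The standard error of Hoxb2 is too small for its 2 counts in Lmyc3 old. Counting error alone gave its ratio the interval 333 to 9952. A log2 difference at least as large as that of Hoxb5 was seen in 60 of 13380 genes, or 0.448%. That cut is the smallest difference of the 8 block genes, so all 8 are among the 60 by construction. The share is a description too. Hoxb9 differed by 8.81 ± 0.40 (edgeR adjusted p = 8.81e-05). Hoxd8, with no count in Lmyc3 new, was at least 12.1-fold lower there against a floor of 3 counts per library, given as a description. The block was low in Lmyc3 old relative to the other cultures too: the lowest library of the other 3 cultures exceeded the highest Lmyc3 old library between 16.7-fold for Hoxb9 and 1106-fold for Hoxb2.

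Marker lists were examined in the same contrast. Of the 11 neuroendocrine markers 4 were higher and 2 lower in Lmyc3 new, 6 of 11 in all, close to the 59.9% of all tested genes that this edgeR test called. The mesenchyme and fibroblast list had 12 of its 13 genes in the table, 5 of them reaching 1 CPM, with a summed level of 1.42 CPM with Nfib and 2.52 CPM with empty vector in Lmyc3 new, against 55.0 and 52.5 CPM in Lmyc3 old. The sum was 47.8 CPM with Nfib and 34.7 CPM with empty vector in Lmyc5 new, where the block was high, and 15.3 and 11.7 CPM in Lmyc1 old. Most of the sum in Lmyc3 old came from Fbln1 (37.0 CPM with Nfib, 37.8 CPM with empty vector), Twist1 (14.1 and 4.21 CPM) and Pdgfra (2.58 and 10.4 CPM). In Lmyc5 new most of it came from Fbln1 (21.2 CPM with Nfib, 16.4 CPM with empty vector), Foxf1 (13.8 and 11.2 CPM) and Pdgfra (12.1 and 6.86 CPM). Foxf1 was at or under 0.552 CPM in the other cultures. The defining collagen and matrix genes Col1a1, Col1a2, Col3a1, Dcn and Lum were at or under 0.223 CPM in all 8 libraries. The part of these markers in the HoxB difference was not tested. In bulk libraries fewer cells that transcribe the block and less RNA per cell cannot be told apart.

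Of the marker lists for other cell types, 3 of 5 endothelial, 2 of 4 leukocyte and 4 of 7 alveolar and airway genes reached 1 CPM in at least 1 library. The endothelial genes Pecam1 and Cdh5 stayed under 0.5 CPM, the leukocyte gene Ptprc had at most 0.0436 CPM and the airway genes Scgb1a1 and Krt5 at most 0.204 and 0.102 CPM. Vwf, an endothelial gene, ranged between 38.7 and 569 CPM with Nfib and between 49.95 and 649.9 CPM with empty vector, and was higher in Lmyc3 new (edgeR log2 difference 3.78). Kdr, another endothelial gene, had 0, 5.75, 6.48 and 0.156 CPM with Nfib in pairs 1 to 4, against 0, 0.0946, 0.0371 and 0 CPM with empty vector, and Tek reached 1.37 CPM in the empty vector library of pair 2. Abca3, of the alveolar list, ranged between 74.7 and 115 CPM with Nfib and between 71.9 and 115 CPM with empty vector. Sftpc reached 1.25 CPM with Nfib and 10.4 CPM with empty vector, and Foxj1 reached 8.25 CPM with Nfib and 2.58 CPM with empty vector. The list sums in Nfib and empty vector libraries were 44.9 to 575.6 and 51.8 to 650.1 CPM for 5 endothelial genes, 19.6 to 45.9 and 28.7 to 58.0 CPM for 4 leukocyte genes, and 86.2 to 122 and 84.6 to 118 CPM for 7 alveolar and airway genes. Coro1a, of the leukocyte list, fell with Nfib and Aqp5, of the alveolar list, rose with Nfib in the paired DESeq2 test (log2 differences -0.47 and 3.08).

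Within pairs, Hoxb9 was the 1 block gene called in the comparison of Nfib with empty vector, and by 1 kind of test. Hoxb9 (ENSMUSG00000020875, chromosome 11, 96271457 to 96276595) had 64.3, 1.70, 512 and 243 CPM in the Nfib libraries of pairs 1 to 4, against 28.4, 0.378, 386 and 182 CPM in the empty vector libraries. The Nfib library was the higher in 4 of 4 pairs, although the arms overlapped across cultures. The within-pair log2 ratios were 1.17, 1.95, 0.41 and 0.42, a mean of 0.99 ± 0.74 (SD, n = 4). The value of pair 2 rests on 37 counts with Nfib and 8 with empty vector, whereas those of the other pairs rest on 838 counts or more per library.

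Whether this difference is called depends on the test. The edgeR test without pairing called none of the 9 tested members and 0% of all tested genes. At an unadjusted p under 0.05 it gave 83 genes and no member, and the Hoxb9 log2 difference was 0.46 ± 1.71. With the replicate number as a block, edgeR again called 0% of all genes and no member. Hoxb9 was then at 0.73 ± 0.20, with an unadjusted p of 0.0127 and an edgeR adjusted p of 0.234. DESeq2 with the replicate block called 1 of 9 tested members higher, Hoxb9, and none lower, where it called 1.86% of all tested genes higher and 2.2% lower (4.06% in all). Its Hoxb9 difference was 0.84 ± 0.24 with an adjusted p of 0.0151 (DESeq2), and 2.83% of all tested genes had a DESeq2 difference at least as large. In this text rose and fell refer to that paired DESeq2 test. The call was lost without pair 1 (DESeq2 0.86 ± 0.50, adjusted p = 0.609) and was kept without pair 2 (0.65, adjusted p = 0.00569), pair 3 (1.03, adjusted p = 0.0249) or pair 4 (1.02, adjusted p = 0.0160).

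**Figure D3:**
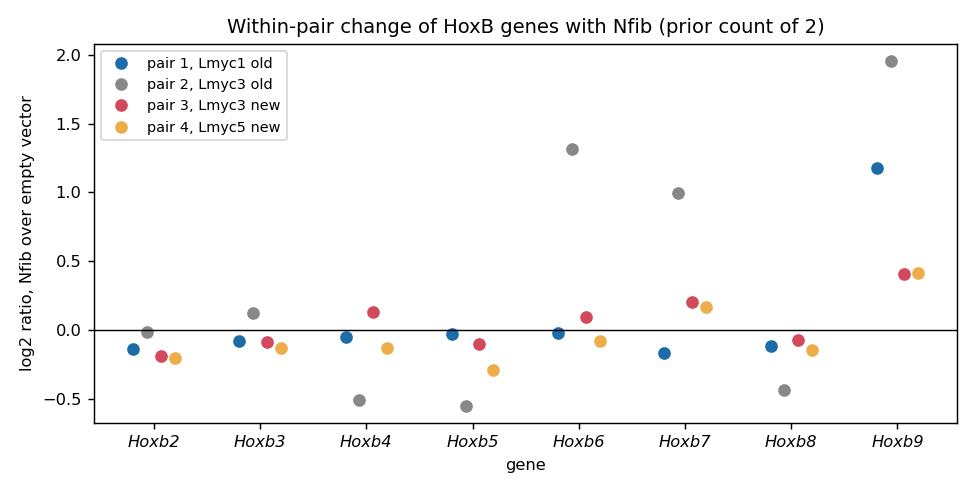
Within-pair log2 ratio of CPM, Nfib over empty vector, for each block gene, 1 point per pair, colored by culture. All 4 points of Hoxb9 lie above 0, between 0.41 and 1.95, and pair 2 (Lmyc3 old), where counts were lowest, is the most scattered of the pairs for the other genes.

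For the other 7 block genes the summed level was 516, 4.92, 620.2 and 718 CPM in the Nfib libraries of pairs 1 to 4, against 541, 5.35, 633 and 791 CPM in the empty vector libraries. Their summed log2 ratios were -0.07, -0.12, -0.03 and -0.14, so the sum was lower with Nfib in each pair by a small amount while Hoxb9 was higher. The single genes were mixed, with 0, 3, 3 and 1 of the 7 higher with Nfib in pairs 1 to 4. The sum of pair 2 rests on few counts. None of the 7 passed the paired DESeq2 test. Their differences ranged between -0.19 ± 0.11 for Hoxb5 (DESeq2 adjusted p = 0.468) and 0.12 ± 0.20 for Hoxb7 (DESeq2 adjusted p = 0.898). Hoxb3, Hoxb4, Hoxb6 and Hoxb8 lay between them, at -0.10 ± 0.10, -0.04 ± 0.15, 0.08 ± 0.17 and -0.13 ± 0.10. The median over the 8 block genes was -0.07, against -0.01 over all tested genes. Hoxd8 differed by -0.24 ± 1.05 (DESeq2 adjusted p = 0.975), with too few counts to place it on either side.

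Written as shares of the block's signal, the same values gave Hoxb9 a larger share in the Nfib library of each pair. The shares add no test to those above. It held 11.1%, 25.7%, 45.2% and 25.3% of the summed Hoxb2 to Hoxb9 CPM in the Nfib libraries of pairs 1 to 4, against 4.99%, 6.61%, 37.9% and 18.7% in the empty vector libraries. The share was higher with Nfib in 4 of 4 pairs, but in pair 2 it rests on 37 Hoxb9 counts with Nfib and 8 with empty vector. Hoxb5 held 28.0%, 28.5%, 14.99% and 11.3% with Nfib, against 29.0%, 48.8%, 17.9% and 13.7% with empty vector. Hoxb8 held 15.02%, 9.72%, 10.4% and 24.4% with Nfib, against 16.6%, 15.7%, 12.2% and 26.6% with empty vector. Summed over the whole HoxB cluster the within-pair log2 ratios were 0.03, 0.21, 0.15 and -0.02, a mean of 0.09 ± 0.11 (SD, n = 4). The HoxD sum gave -0.93 in pair 2 and -0.03 in pair 4 and had no counts in the other pairs.

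**Figure D4:**
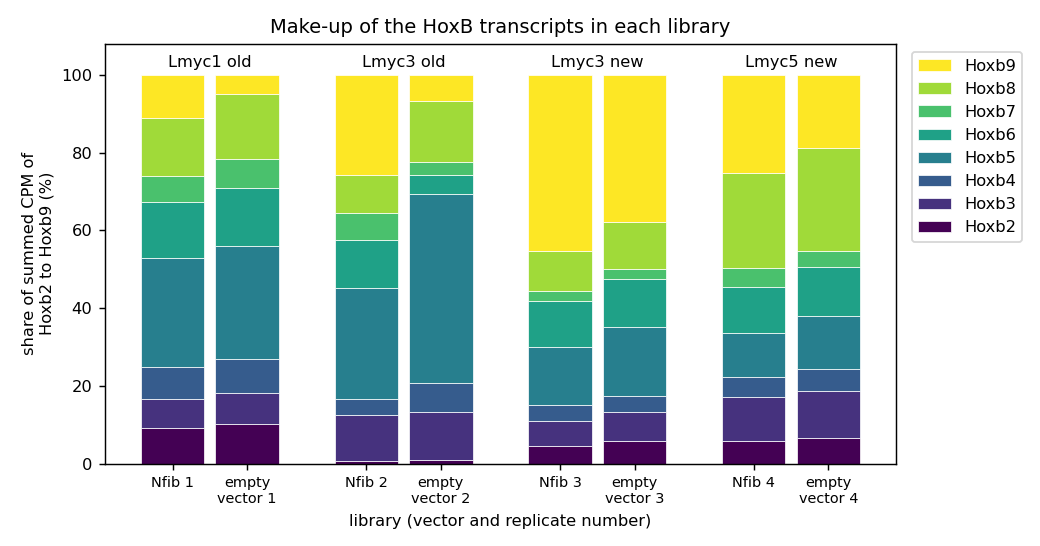
Share of the summed Hoxb2 to Hoxb9 CPM held by each gene (percent), Nfib bar left of the empty vector bar in each pair. The Hoxb9 share is 11.1% to 45.2% with Nfib and 4.99% to 37.9% with empty vector, higher with Nfib within each pair.

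The Nfib difference was also compared between the cultures called new and those called old, by an edgeR interaction with the replicate block. No tested member was called, nor any other gene (0%), and 405 genes had an unadjusted p under 0.05. DESeq2 called 7 genes in this comparison and no member. For Hoxb9 the edgeR difference between new and old cultures was -0.90 ± 0.22, with an unadjusted p of 0.0116 and an edgeR adjusted p of 1.

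The main antisense transcripts of the cluster were also lowest in Lmyc3 old. Hoxb5os, which overlaps Hoxb5 and Hoxb6, had 1.74, 0, 15.8 and 25.1 CPM with Nfib in pairs 1 to 4, against 2.85, 0, 20.2 and 23.4 CPM with empty vector. Hoxb3os, which overlaps Hoxb2 and Hoxb3, had 4.27, 0.0460, 3.58 and 1.99 CPM with Nfib, against 5.29, 0, 3.64 and 2.21 CPM with empty vector. Both were absent or at 1 count in Lmyc3 old, and neither passed a test of Nfib. Among the other cultures Hoxb5os was lowest in Lmyc1 old, as Hoxb6 was, whereas Hoxb5 was lowest in Lmyc5 new. Hoxb3os was lowest in Lmyc5 new, where Hoxb3 was highest. The 6 noncoding entries within 20 kb of a member also included Mir10a, Gm11536, Hoxd3os1 and Hottip, which stayed at or under 0.371 CPM. No source used here gives the strand setting of the counting, so reads of Hoxb2, Hoxb3, Hoxb5 and Hoxb6 and of these antisense partners cannot be told apart. The 2 partners together had fewer counts than the genes they overlap, 2195 for Hoxb5os against 23274 for Hoxb5 and 536 for Hoxb3os against 8537 for Hoxb2.

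The low level in Lmyc3 old did not extend to every neighbour of the cluster. Snx11, a sorting nexin gene 399.3 kb beyond Hoxb1, had 35.7, 36.8, 34.6 and 54.0 CPM in the Nfib libraries of pairs 1 to 4, against 28.6, 29.1, 27.0 and 43.9 CPM in the empty vector libraries. It did not differ detectably between Lmyc3 new and Lmyc3 old (edgeR log2 difference -0.10, adjusted p = 0.348), and it rose with Nfib (DESeq2 0.32, adjusted p = 0.0117). Skap1, an adapter protein gene 96.3 kb beyond Hoxb1, had 52.2, 2.02, 79.7 and 2.42 CPM with Nfib, against 49.2, 3.69, 89.0 and 2.08 CPM with empty vector. Skap1 was thus low in Lmyc3 old and also in Lmyc5 new, where the block was high. On the other side Ttll6, 28.9 kb from Hoxb13, had counts only in Lmyc3 new (0.777 CPM with Nfib, 0.223 CPM with empty vector) and Calcoco2 stayed at or under 0.0946 CPM.

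The list held 14 protein-coding entries that are no members and lie beside the 3 clusters or inside them (Gm53 and HOXD3). Of these 10 were tested and 1, Snx11, was called with Nfib by the paired DESeq2 test, which called 4.06% of all tested genes. Next to HoxA, Skap2 was higher in Lmyc3 new (edgeR log2 difference 3.44, adjusted p = 0.000868), while Snx10 was lower (-0.71), Hibadh was higher (0.61) and Tax1bp1 did not pass (0.40). Next to HoxD, Atp5g3 and Mtx2 were lower in Lmyc3 new by the same edgeR test (-1.09 and -0.40), and Lnp and Hnrnpa3 did not pass (-0.13 and -0.01). The HoxA genes and the HoxD genes other than Hoxd8 stayed under 1 CPM, while Hibadh, Tax1bp1, Atp5g3, Lnp, Mtx2 and Hnrnpa3 were at 28.5 CPM or more in every library.

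**Figure D5:**
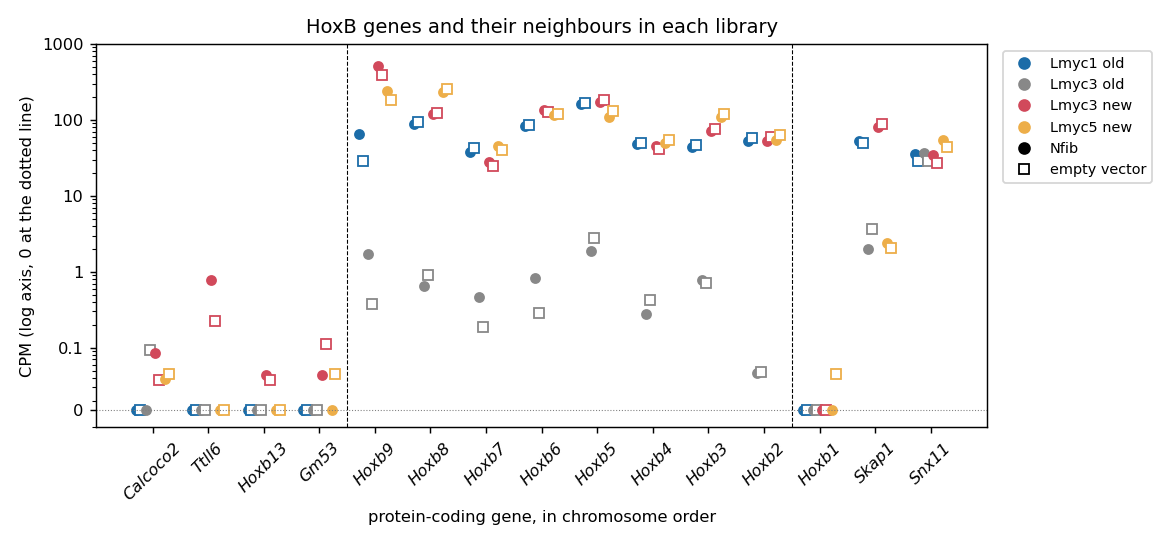
CPM (log axis with 0 at the dotted line) of the HoxB genes and their protein-coding neighbours in chromosome order, with filled circles for Nfib libraries and open squares for empty vector libraries, colored by culture. The dashed lines border Hoxb9 to Hoxb2. Snx11 stays between 27.0 and 54.0 CPM in all 8 libraries, whereas Skap1 is under 4 CPM in Lmyc3 old and Lmyc5 new.

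Most genes of Hox partner proteins were transcribed in every culture. Of 9 cofactor genes all reached 1 CPM, 8 were tested and none rose or fell with Nfib (median log2 difference -0.15, against -0.01 over all tested genes). Meis2, a Hox partner, had 109, 109, 131 and 143 CPM with Nfib in pairs 1 to 4, against 143, 109.9, 176 and 168 CPM with empty vector, and was lower with Nfib in each pair without passing (DESeq2 -0.27, adjusted p = 0.109). Meis1, its paralogue, a partner of Hox proteins in leukemia, had 15.6 CPM with Nfib and 13.6 CPM with empty vector in Lmyc3 old and stayed under 0.5 CPM elsewhere. It was not kept by the filter.

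Between Lmyc3 new and Lmyc3 old, 3 of 8 tested cofactors were higher and 3 lower in the edgeR test, which called 30.4% and 29.5% of all tested genes (median 0.06, against -0.01 over all tested genes). Pknox1 and Pbx2 were higher by 1.24 and 1.08 on the log2 scale (edgeR adjusted p = 0.00032 and 0.000259). Meis2 was higher by 0.47, and Pbx3 and Pknox2 were among the lower ones (-0.85 and -0.81).

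Regulators of Hox clusters showed no call with Nfib either. Of 30 genes in the list 25 reached 1 CPM and were tested, none rose or fell, and their median log2 difference was -0.05. The trithorax methyltransferase gene Kmt2a had 337, 266, 353 and 425 CPM with Nfib in pairs 1 to 4, against 325, 320.2, 371 and 505 CPM with empty vector. The Polycomb methyltransferase gene Ezh2 had 214, 177, 185 and 199 CPM with Nfib, against 198, 214, 167 and 221 CPM with empty vector. Both were transcribed in Lmyc3 old as well as in the cultures with an active block. The Cdx genes, which activate central Hox genes in the embryo, had at most 0.111 CPM.

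Between Lmyc3 new and Lmyc3 old, 10 of 25 tested regulators were higher and 2 lower in the edgeR test, against 30.4% and 29.5% of all tested genes, with a median of 0.14 against -0.01 over all tested genes. Kmt2a (0.31), Kmt2d (0.77), Men1 (0.43) and Kdm6a, which removes the Polycomb mark (0.84), were among the higher ones. The Polycomb genes Cbx7 (1.42, edgeR adjusted p = 0.00154), Ezh1 (0.84), Bmi1 (0.49) and Ring1 (0.39) were higher as well. Rarb, a retinoic acid receptor gene, was lower in Lmyc3 new (edgeR -2.27, adjusted p = 0.00423), at 1.30 CPM with Nfib and 1.48 CPM with empty vector in Lmyc3 new, against 4.97 and 8.66 CPM in Lmyc3 old. Rarg, another receptor of that family, was higher (5.71), at 7.12 and 7.53 CPM in Lmyc3 new, against 0 and 0.284 CPM in Lmyc3 old. Ezh2, Eed and Suz12, the core of the methylating Polycomb complex, differed by -0.15, 0.14 and -0.22 without passing.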

How the data were processed

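The authors deposited 1 table of raw read counts per Ensembl gene for 8 libraries, whole numbers that were not normalized. Per the labels' protocols, library preparation followed the TruSeq RNA procedure. Per the submitters' processing notes, the build was GRCm38 (mm10) and the tools included DESeq2, TopHat2 2.1, SAMtools 0.1.19 and Bowtie 1.0.0. No source used here names the counter, the annotation release or the strand setting. A further allele of the labelled genotype and some genes of the lists are not reported here, while counts and sums over lists include those genes.

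Groups came from the source field and cultures from the descriptions. Genes were tested on the whole table in R 4.3.3 with edgeR 4.0.16 (quasi-likelihood, original form, TMM, low-count filter by arm, 13380 genes kept, Benjamini-Hochberg at 0.05). Models were Nfib against empty vector without a block, the 4 cultures with the arm as covariate, and Nfib by old or new with the replicate block. Alternatives were the replicate block, DESeq2 1.42.0, limma 3.58.1 (voom), other scalings, no filter and each replicate left out. The labels pair the libraries, since those of equal number share a culture. Deviations from the arm mean correlated at 0.908, 0.884, 0.935 and 0.929 for equal numbers, and at most 0.0647 otherwise. Because edgeR made no call, rose and fell refer to DESeq2 with the replicate block, chosen after the values were seen. The fits were also run on simulated counts, and the outcome is not given here.

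CPM used TMM-scaled library sizes, within-pair log2 ratios a prior count of 2, and levels per kb the union of exons in GENCODE vM21, which may differ from the authors' annotation. Standard errors of edgeR are the log2 difference over the root of F, which can be too small where a culture has few counts. Named were all members that reach 1 CPM, and genes of the cofactor, regulator, noncoding and neighbour lists that reach 10 CPM or pass a test, of which the text gives a selection; Rarb, Rarg, Meis1, Xist and the single markers of other cell types were added after their values were seen. The members and lists were chosen with earlier results of these data known. Intervals and floors (3 counts) cover counting error only.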

Additional observations from a re-analysis of the deposited data

Results flagged for a closer look

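In all, 5 values among groups of 4 lay farther from the nearest sample, relative to the range of their group, than Dixon's 95% criterion allows, which chance gives in about 1 of 20 groups. The number of groups searched is not given here, so the 5 cannot be weighed against that rate. All 5 were in pair 2 (Lmyc3 old), and they are not independent. Hoxb2 was lowest there, at 0.0460 CPM among the Nfib libraries and 0.0473 CPM among the empty vector libraries. Hoxb4 was lowest there among the Nfib libraries, at 0.276 CPM. These 3 values repeat the low HoxB level of that culture. The within-pair log2 ratio of Hoxb6 was highest there (1.31) and that of Hoxd8 lowest (-0.76). Both ratios rest on few counts, 18 with Nfib and 6 with empty vector for Hoxb6, and 23 and 39 for Hoxd8.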

How the results depend on the processing

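Without a block edgeR called no Hox gene between Nfib and empty vector, and with the replicate block it again called 0. The count became 1, Hoxb9, with DESeq2 and the replicate block, also with total counts as scaling (543 and 525 of all genes, against 0 by edgeR). Leaving out 1 replicate at a time under that test gave 0 to 1 members, with 0 without replicate 1. Over all genes, edgeR adjusted for bias with the replicate block called 44 genes, edgeR without a filter and with the block 38, limma voom with the block 3 and DESeq2 without a block 3, none of them a Hox gene. The number of Hox genes counted as transcribed moved in Lmyc3 old: at 0.5 CPM it was 6 with Nfib and 5 with empty vector, at 1 CPM 3 and 2, and at 2 CPM 0 and 1. The other 78 values of this kind stayed within 1.5 times. Signs turned for differences near 0: Hoxb4 was at 0.0092 with total counts, and ranged between -0.0923 and 0.0387 with 1 replicate left out (positive without replicate 4). Hoxb6 was at -0.0019 with DESeq2 size factors, -0.0018 with DESeq2 unpaired, -0.0062 (DESeq2) and -0.0020 (edgeR) with the replicate block and without replicate 2, and between -0.0520 (without replicate 3) and 0.0545 with 1 replicate left out of the unpaired test. Hoxb7 ranged between -0.0093 (without replicate 4) and 0.19, and the Hoxb5 interaction at 0.0041 without a filter. The cause was not tested. Without a filter, 18 members were tested and 8 were higher and 2 lower in Lmyc3 new by edgeR. Of all 22691 genes that fit called 4249 higher and 3940 lower. The 9 members it added had 1 to 21 counts each over all libraries. Some alternatives were chosen after seeing the data: bias-adjusted edgeR, DESeq2 with total counts, and the paired fits and culture test without single replicates. Depth limits Lmyc3 old most, where HoxB had 144 and 121 counts.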
